A study of Mus musculus with 4 samples.

Results

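The genes described are the 10 that make serotonin and load it into vesicles, with their regulators: the tryptophan hydroxylases Tph1 and Tph2, the decarboxylase Ddc, the vesicular monoamine transporters Slc18a1 and Slc18a2, the transcription factors Lmx1a and Fev, and the tetrahydrobiopterin genes Gch1, Pts and Qdpr. They were taken by symbol from 23074 gene symbols in the files, each symbol matched 1 gene row, and together they have 12 RefSeq isoforms. RNA came from 2 cm of mouse colon next to the caecum, at 6 weeks of age and on a mixed strain. The 2 control libraries were Nkx2.2flox/+ without Cre. The 2 mutant libraries were Nkx2.2flox/flox; Villin-Cre/+, in which the villin promoter drives Cre in the gut epithelium. Every library carried at least 1 floxed allele and only the mutants carried Cre, so effects of Cre itself and of losing Nkx2-2 cannot be told apart here. Nothing in the labels states whether each library is a different animal, and a p-value here reflects only the spread among these libraries.

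Serotonin of the gut is made mainly in enterochromaffin cells, a rare hormone-secreting cell type of the epithelium. A tryptophan hydroxylase, TPH1 in the gut and TPH2 in neurons, adds a hydroxyl group to tryptophan in the rate-limiting step, with tetrahydrobiopterin as its cofactor. The decarboxylase encoded by Ddc then forms serotonin, and a vesicular monoamine transporter, VMAT1 (Slc18a1) or VMAT2 (Slc18a2), carries it into secretory vesicles in exchange for protons. Lmx1a and Fev encode transcription factors with known roles in serotonin-producing cells. Nkx2-2 encodes a homeodomain transcription factor that acts earlier in the enteroendocrine lineage.

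The isoform estimates of Ddc and Tph1 differ by start site, so the DNA before each start is shown, although no isoform of either gene passed over all isoforms. Ddc and Tph1 each have 2 RefSeq isoforms in the files, which differ in their first exon. Both genes lie on the minus strand, Ddc at chr11:11714104-11798147 and Tph1 at chr7:53902501-53927907 on mm9. The 2 starts lie 7736 bases apart in Ddc and 5189 bases apart in Tph1. In GENCODE vM1 the coding sequence of each transcript begins in exon 2 and is the same for both starts, so the first exons are 5′ UTR. The first exon of the downstream Ddc isoform ends at 11790341 and spans 71 bases from the start in the files, and that of the upstream isoform ends at 11798011 and spans 137 bases. Each sequence is the 250 bases upstream of the start, 5′ to 3′ on the minus strand of mm9, with the start taken as the outermost of the files and GENCODE. Capitals mark matches to the core of NK2 homeodomain sites (AAGTG, or CACTT on the other strand) and to part of the site of the factor HNF1 (GTTAAT, or ATTAAC).
Ddc downstream start (NM_016672), chr11:11790412-11790661: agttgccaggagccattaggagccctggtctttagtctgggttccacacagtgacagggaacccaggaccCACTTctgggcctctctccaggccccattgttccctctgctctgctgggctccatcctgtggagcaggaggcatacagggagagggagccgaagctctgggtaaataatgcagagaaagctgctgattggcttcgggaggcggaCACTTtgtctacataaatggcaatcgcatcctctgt
Ddc upstream start (NM_001190448), chr11:11798148-11798397: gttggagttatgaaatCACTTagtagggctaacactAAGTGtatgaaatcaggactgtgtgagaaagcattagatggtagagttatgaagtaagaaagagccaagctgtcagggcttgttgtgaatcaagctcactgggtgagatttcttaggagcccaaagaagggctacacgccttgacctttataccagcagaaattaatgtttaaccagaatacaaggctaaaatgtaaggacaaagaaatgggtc
Tph1 downstream start (NM_001136084), chr7:53922748-53922997: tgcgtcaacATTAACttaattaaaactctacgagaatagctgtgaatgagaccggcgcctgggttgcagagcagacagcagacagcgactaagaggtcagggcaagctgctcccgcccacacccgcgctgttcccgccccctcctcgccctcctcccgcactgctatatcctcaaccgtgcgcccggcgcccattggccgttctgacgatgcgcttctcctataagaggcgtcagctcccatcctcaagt
Tph1 upstream start (NM_009414), chr7:53927908-53928157: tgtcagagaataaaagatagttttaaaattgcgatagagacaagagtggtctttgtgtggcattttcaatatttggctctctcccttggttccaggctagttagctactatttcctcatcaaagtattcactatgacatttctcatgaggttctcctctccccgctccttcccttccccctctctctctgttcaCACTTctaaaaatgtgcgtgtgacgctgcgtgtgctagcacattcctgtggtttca

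AAGTG was found on either strand 2 times before each Ddc start, 1 time before the upstream Tph1 start and 0 times before the downstream one. In the downstream Ddc window the matches begin 180 and 36 bases before the start. Of 32851 RefSeq promoters (GRCm38.p6, the same 250 bases), 40.7% hold this match. GTTAAT was found 1 time, 241 bases before the downstream Tph1 start, and is held by 6.43% of promoters. An ETS core (CCGGAA, the family of Fev; 12.03% of promoters) was found in none of the 4 windows. A core bound by LIM homeodomain factors such as Lmx1a (TAATTA; 4.84% of promoters) was found before the downstream Tph1 start only, where it overlaps no other match. A match is a description of letters and shows no binding. The windows before the downstream starts held 56.0% (Ddc) and 58.8% (Tph1) G and C, and those before the upstream starts 40.8% and 43.6%, against a median of 52.4% over all promoters.

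Taking control 1 as 1, the depth was 1.13 for control 2, 0.464 for mutant 1 and 1.03 for mutant 2, so low values in mutant 1 rest on the fewest fragments. Levels are in FPKM, fragments per kilobase of transcript scaled to library size, and can be compared between genes. Of 14000 genes fitted with limma, 9 passed at an adjusted p of 0.05, and leaving out 1 library moved that count to 124 (without control 1), 363 (control 2), 8 (mutant 1) or 12 (mutant 2). As deposited, these genes had a median log2 change of −0.17 and 82.6% had a change below 0; with median ratio rescaling the values were −0.0052 and 51.3%. Epithelial markers were abundant in all libraries: 13 of 14 were tested, their summed level ran from 23766 to 32519 FPKM in the controls and from 26004 to 26034 FPKM in mutants, and 0 passed. Car1, a colonocyte carbonic anhydrase, had 15112 and 22063 FPKM in the controls and 17320 and 16278 FPKM in the mutants, and the galectin gene Lgals4 2644 and 2865 FPKM in the controls and 2432 and 2588 FPKM in the mutants. In the authors' deposited table Lgals4 stood much further below Car1. Mean normalized counts there were 254.9 (controls) and 260.9 (mutants) for Lgals4, and 218274 and 217756 for Car1. The reason was not tested. The transcription factor gene Cdx2 (unadjusted p = 0.192, limma) and the adhesion gene Epcam (0.231) had the smallest p of that list.

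The targeted gene, Nkx2-2 (chr2:147003282-147012138), had 0.724 and 0.609 FPKM in the controls and 0.125 and 0.351 FPKM in the mutants. Both mutants lay below both controls, at 1 and 4.7 implied fragments. The change did not pass (log2 change −0.68, 95% interval −1.40 to 0.05, limma adjusted p = 0.824), and was −1.26 with a pseudocount of 0.1. All control signal was assigned to the isoform NM_010919, listed at 0 and 2.14e-09 FPKM in the mutants. The mutant signal was assigned to NM_001077632, listed at 1.07e-08 and 3.06e-07 FPKM in the controls. NM_010919 did not pass either (log2 change −1.22, 95% interval −2.47 to 0.03, limma adjusted p = 0.853). Whether the isoform estimate holds on so few fragments was not tested.

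Of the 10 genes, Tph1 fell in the mutants and the other 9 did not pass over all genes, where 0.0643% passed (0.0286% lower and 0.0357% higher). In the authors' deposited table Tph1 was also the only one of the 10 with an adjusted p under 0.05, where 0.0384% of genes passed, and at an unadjusted p under 0.05 that table has 2 of the 10, Tph1 and Gch1, against 0.432% of genes. At an unadjusted p under 0.05 in limma there were 5 of the 10 (Tph1, Slc18a1, Qdpr, Ddc and Gch1), against 4.82% of all genes. Both mutants lay below both controls for Tph1, Ddc, Slc18a1, Lmx1a and Qdpr, 5 of 10 against 35.1% of all genes, and after median ratio rescaling these were again the genes called, against 16.2%. Both mutants lay above both controls for Gch1 alone as deposited (3.39% of all genes), and for Gch1, Slc18a2 and Tph2 after rescaling (13.9%). The median log2 change of the 10 genes was −0.44, beside −0.17 for all genes fitted. All 10 were fitted, although only 8 reached the minimum mean of 0.5 FPKM, and Tph2 and Lmx1a did not.

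**Figure D1:**
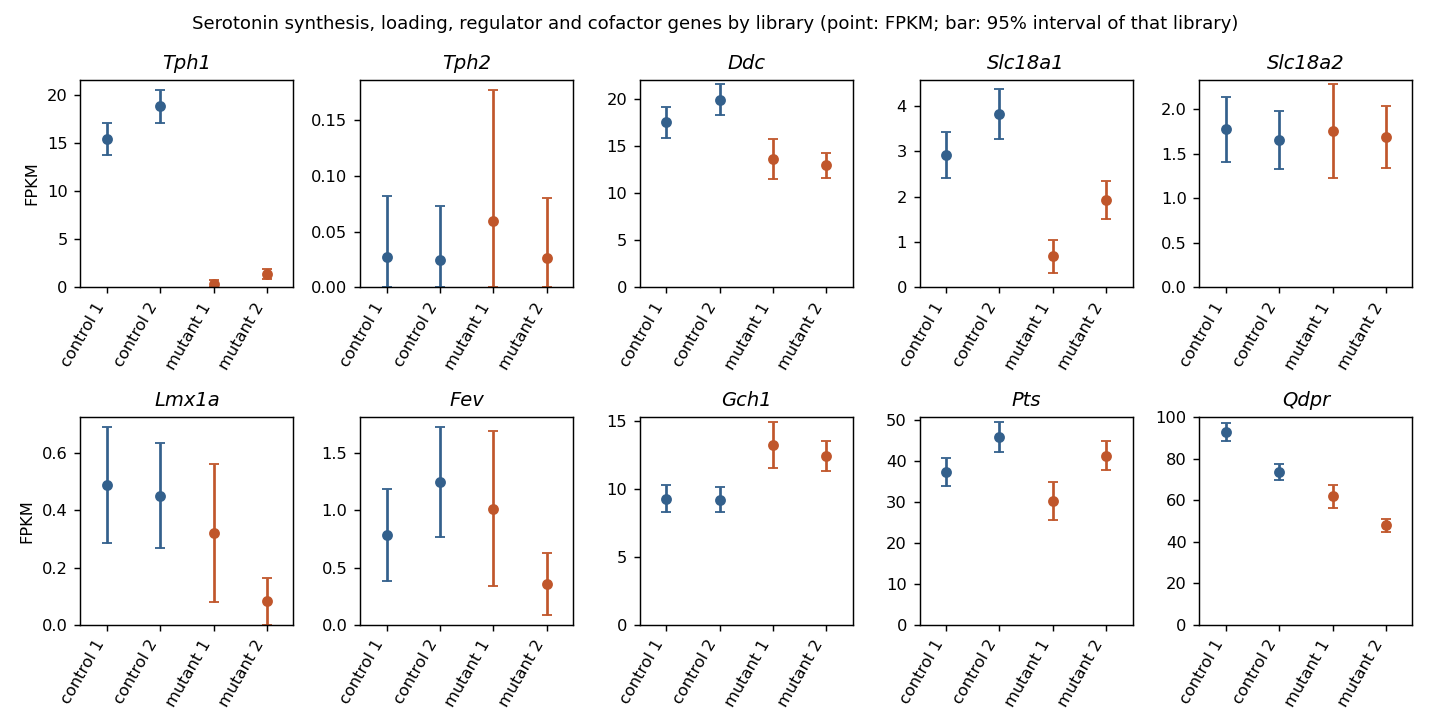
FPKM of the 10 genes (vertical axes from 0, a separate scale for each gene) in the 2 control libraries (blue) and the 2 mutant libraries (orange), with bars for the 95% interval that the authors gave for each library. Tph1 stands at 15.4 and 18.8 FPKM in the controls and at 0.354 and 1.40 FPKM in the mutants, while Slc18a2 stays between 1.65 and 1.77 FPKM in all 4.

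In the controls the order of levels was Qdpr (83.3 ± 13.5 FPKM), Pts (41.7 ± 6.05), Ddc (18.7 ± 1.69), Tph1 (17.1 ± 2.39), Gch1 (9.23 ± 0.0625), Slc18a1 (3.37 ± 0.637), Slc18a2 (1.71 ± 0.0848), Fev (1.02 ± 0.330), Lmx1a (0.469 ± 0.0260) and Tph2 (0.0259 ± 0.00221; SD, n = 2 each). Only Ddc and Tph1 overlapped among neighbours in this order. The cofactor recycling and synthesis genes Qdpr and Pts thus stood above both steps of serotonin synthesis, and the regulators near or under 1 FPKM.

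Tph1, the rate-limiting enzyme, had 15.4 FPKM in control 1, 18.8 FPKM in control 2, 0.354 FPKM in mutant 1 and 1.40 FPKM in mutant 2. The mutant levels were 2.07% and 8.15% of the control mean, far outside the range of the controls. Behind the control values stand 351.4 and 484.3 implied fragments, against 2.4 for mutant 1 and 30.6 for mutant 2. The log2 change was −3.79 (SE 0.36, limma adjusted p = 0.0140), or −3.62 relative to the median of all genes. The authors' deposited table gives Tph1 a mean of 339.6 normalized counts for the controls against 21.6 for the mutants, with an adjusted p of 3.53e-11. The call was lost in 5 of the 15 alternatives (limma fits and the authors' deposited table), among them without mutant 1 (log2 change −3.21, adjusted p = 0.131) and after median ratio rescaling (−3.66, adjusted p = 0.160), and the direction held in all 15. In bulk tissue, fewer serotonin cells and less Tph1 RNA per cell cannot be told apart.

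Tph2, the neuronal hydroxylase (chr10:114515697-114622078), was at 0.0275 and 0.0243 FPKM in the controls and 0.0591 and 0.0266 FPKM in the mutants. Each of these values corresponds to 1 implied fragment per library, so no difference was detectable at this depth.

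Ddc, the decarboxylase of serotonin and dopamine synthesis, had 17.5 and 19.9 FPKM in the controls and 13.6 and 12.9 FPKM in the mutants. The groups did not overlap, with mutants at 72.8% and 69.1% of the control mean, but the change did not pass (log2 change −0.48, 95% interval −0.91 to −0.04, limma adjusted p = 0.824), and was −0.31 after median ratio rescaling. The ratio of Tph1 to Ddc FPKM was 0.883 and 0.947 in the controls and 0.0260 and 0.108 in the mutants.

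**Figure D2:**
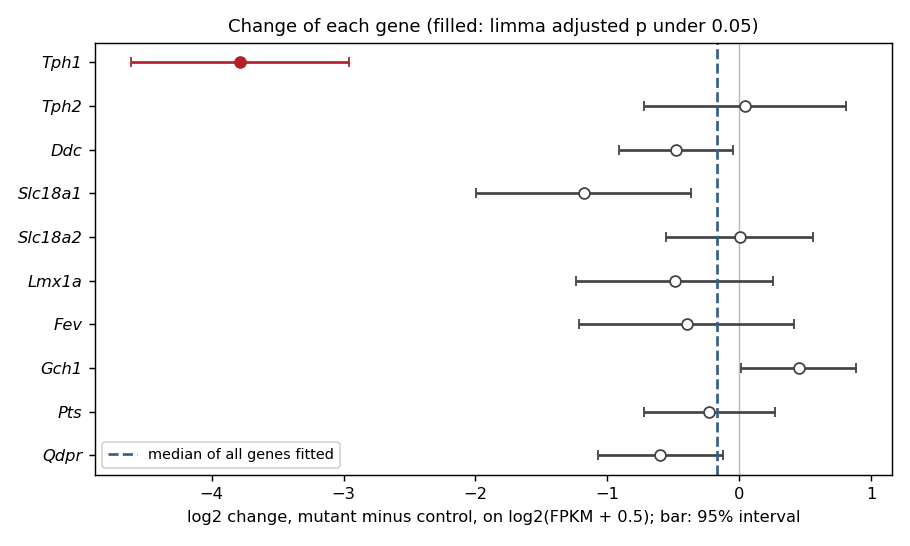
Log2 change of each gene (mutant minus control, on log2(FPKM + 0.5), horizontal axis) with its 95% limma interval; the filled point passed over all genes, and the dashed line marks the median change of all genes fitted (−0.17). Tph1 at −3.79 is the filled point, and the next lowest gene, Slc18a1, is at −1.18.

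The 2 isoforms of Ddc had unlike values. The downstream-start isoform NM_016672 had 4.64 FPKM in control 1 and 3.93 FPKM in control 2 and was listed at 3.89e-05 FPKM in mutant 1 and 7.40e-05 FPKM in mutant 2. The authors' 95% intervals were 3.54 to 5.74 and 2.97 to 4.90 FPKM in the controls, and reached at most 0.164 and 0.0738 FPKM in the mutants. This isoform held 26.5% and 19.8% of the Ddc signal in the controls, and in the mutants nearly all of the signal was assigned to the upstream-start isoform. NM_001190448, from the upstream start, had 12.8 and 15.9 FPKM in the controls and 13.6 and 12.9 FPKM in the mutants, so its groups overlapped.

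The log2 change of NM_016672 was −3.26 (SE 0.34, 95% interval −4.13 to −2.38) and did not pass over 16908 isoforms (limma adjusted p = 0.321, unadjusted p = 0.000216). Unadjusted p-values under 0.05 with lower mutants were found for 3.18% of isoforms, and 31.9% had both mutants below both controls, against 5.23% above. It ranked 9 by p among these isoforms, of which 1 passed (0.00591%), the small nucleolar RNA Snord15b, named after its value was seen. The log2 change of NM_016672 ran from −3.36 to −3.15 with each library left out in turn. Among genes with more than 1 isoform, 3321 isoforms had at least 3 FPKM in both controls. Of these, 7 (0.211%) were listed under 0.001 FPKM in both mutants, 5 of them with the gene still at 3 FPKM or more (Ddc, Emcn, Sipa1, Sirt3 and Sp110). From mutants to controls the same was found for 1 of 3006 (0.0333%), also in Emcn. NM_001190448 had a log2 change of −0.11 (interval −0.60 to 0.39). The 2 Ddc isoforms share 13 of 15 exons in GENCODE, so only fragments reaching the exons they do not share separate them. Reads over the first exons were not analysed here, and whether the isoform estimate failed in the mutants was not tested.

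In the controls, Tph1 signal was assigned to its downstream start, whereas most Ddc signal was assigned to the upstream one. The Tph1 isoform NM_001136084 had 15.4 and 18.8 FPKM in the controls, 3.06e-07 FPKM in mutant 1 and 1.40 FPKM in mutant 2, and the upstream NM_009414 was listed under 1e-06 FPKM in both controls and in mutant 2. In mutant 1 the whole Tph1 estimate of 0.354 FPKM (interval 0 to 0.770) fell on NM_009414, from the 2.4 implied fragments of the gene. NM_001136084 had a log2 change of −4.17 (95% interval −5.85 to −2.49), which did not pass over all isoforms (limma adjusted p = 0.566). In the controls, the downstream isoform of Tph1 stood 3.33 and 4.78 times as high as that of Ddc.

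**Figure D3:**
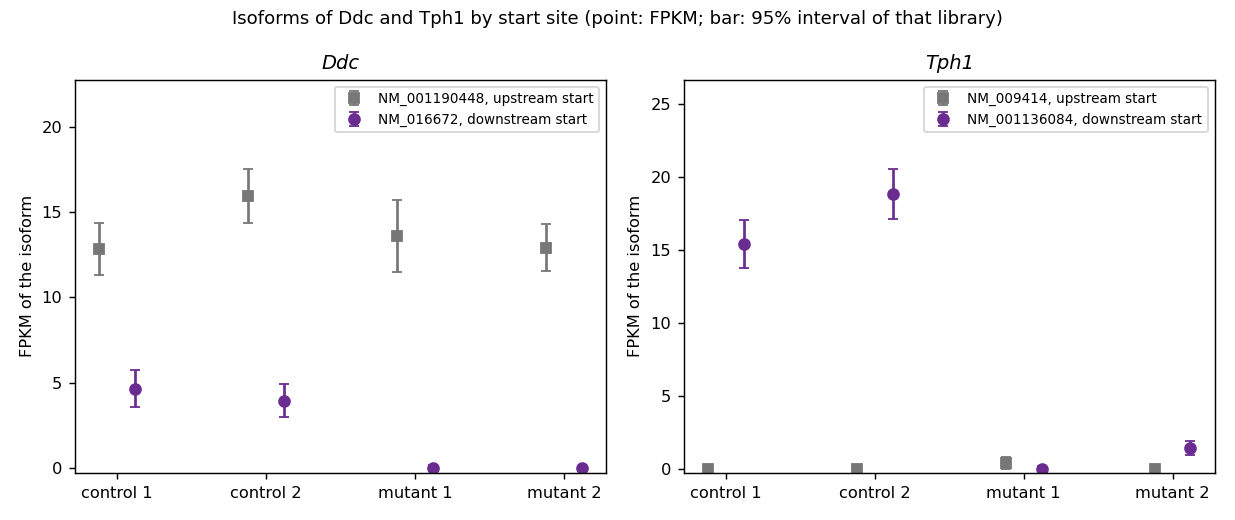
FPKM of the 2 isoforms of Ddc (left) and Tph1 (right) in each library, with the authors' 95% intervals; purple circles are the downstream start and grey squares the upstream start. The downstream Ddc isoform is at 4.64 and 3.93 FPKM in the controls and near 0 in both mutants, while the upstream isoform stays between 12.8 and 15.9 FPKM.

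Neither vesicular transporter passed. Slc18a1, VMAT1, known from endocrine cells (chr8:71561607-71613121), had 2.92 and 3.82 FPKM in the controls and 0.688 and 1.92 FPKM in the mutants. Both mutants were lower than both controls, at 20.4% and 57.1% of the control mean, on 128 and 189 implied fragments in the controls and 14 and 87 in the mutants. The change did not pass over all genes (log2 change −1.18, SE 0.36, 95% interval −1.99 to −0.37, limma adjusted p = 0.824, unadjusted p = 0.0101), nor without control 2 (log2 change −1.01, adjusted p = 0.167), mutant 1 (−0.67, 1) or mutant 2 (−1.69, 0.311). Without control 1, where 124 genes passed against 9, it did (−1.35, adjusted p = 0.0287).

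Slc18a2, VMAT2, known from neurons and mast cells (chr19:59335368-59370502), had 1.77 and 1.65 FPKM in the controls and 1.75 and 1.68 FPKM in the mutants. The groups overlapped, and the 95% interval of its log2 change ran from −0.55 to 0.56, which overlaps that of Slc18a1 (−1.99 to −0.37). The ratio of Slc18a1 to Slc18a2 FPKM was 1.65 and 2.31 in the controls and 0.393 and 1.14 in the mutants. VMAT1 was thus listed higher in both controls and in mutant 2, and VMAT2 in mutant 1. In mutant 2 the authors' intervals overlapped (1.51 to 2.34 FPKM for Slc18a1, 1.34 to 2.03 FPKM for Slc18a2). The difference between the 2 changes was not tested.

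Among cell types that share these transporters, mast cell markers did not pass: all 11 are in the files, 4 were tested, 0 passed, and the summed level was 34.2 and 31.3 FPKM in the controls and 35.4 and 20.7 FPKM in the mutants. Kit, a receptor of mast cells that pacemaker cells of the gut also carry, was the most abundant with 16.1 and 21.7 FPKM in the controls and 14.5 and 16.6 FPKM in the mutants. The mucosal protease Mcpt1 had 11.4 and 5.90 FPKM in the controls and 13.8 and 2.60 FPKM in the mutants, and the carboxypeptidase Cpa3 0.908 and 0.426 FPKM in the controls and 0.690 and 0.104 FPKM in the mutants. The chymase Cma1 and the IgE receptor genes Fcer1a and Ms4a2 were at or under 0.179 FPKM in all libraries. Enteric neuron markers all had changes below 0 (12 of 12 tested, median log2 change −0.45, 0 passed), beside 82.6% of all genes with a median of −0.17, and summed levels of 86.0 and 106.4 FPKM in the controls and 54.1 and 78.6 FPKM in the mutants. The synaptic gene Snap25 had 4.94 and 5.82 FPKM in the controls and 1.87 and 3.81 FPKM in the mutants, and the neuronal factor Phox2a 0.712 and 1.68 FPKM in the controls and 0.205 and 0.368 FPKM in the mutants. The most abundant neuronal markers were Vip, with 30.4 and 50.2 FPKM in the controls and 26.2 and 33.5 FPKM in the mutants, and Uchl1, with 18.3 and 15.2 FPKM in the controls and 7.47 and 12.8 FPKM in the mutants. Slc18a1, like these neuronal genes, was lowest in mutant 1, as were the sums of most of the gene lists used here. The part of either cell type in the changes of Slc18a1 and Slc18a2 was not tested.

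The transcription factors were low in all libraries. Lmx1a, a LIM homeodomain factor (chr1:169619689-169778864), had 0.488 and 0.451 FPKM in the controls and 0.320 and 0.0823 FPKM in the mutants. The groups did not overlap, but the counts behind them were small, with 23 and 24 implied fragments in the controls and 7 and 4 in the mutants. Its log2 change was −0.49 (95% interval −1.24 to 0.26, limma adjusted p = 0.824) with a pseudocount above its own level, and −1.04 with a pseudocount of 0.1. Without mutant 2 it was −0.24, and without mutant 1 −0.74. The authors' deposited table gives Lmx1a a mean of 18.0 normalized counts for the controls against 13.0 for the mutants.

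Fev, an ETS factor that directs serotonin genes in neurons (chr1:74928083-74931982), had 0.784 and 1.25 FPKM in the controls and 1.01 and 0.355 FPKM in the mutants. Mutant 1 lay inside the control range, so the groups overlapped (log2 change −0.40, 95% interval −1.21 to 0.42, limma adjusted p = 0.824), and without mutant 2 the change was 0.01. Tph1 and Slc18a1 were listed lower in mutant 1 than in mutant 2 (0.253 and 0.357 of it), with authors' intervals that did not overlap. Lmx1a and Fev were listed higher in mutant 1 (3.89 and 2.86 times), but on 7 against 4 and 9 against 7 implied fragments, and their intervals overlapped (Lmx1a 0.0780 to 0.561 and 0 to 0.165 FPKM, Fev 0.338 to 1.69 and 0.0866 to 0.623 FPKM). These differences between single libraries were not tested.

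Of 18 further transcription factors tied to serotonin or enteroendocrine cells, Nkx2-2 among them, 11 were tested. A change below 0 was found for 6 and above 0 for 5, and 0 passed (median log2 change −0.28). Among all genes fitted, 82.6% had a change below 0, with a median of −0.17. Foxa2, a forkhead factor of endoderm, had 4.60 and 4.69 FPKM in the controls and 2.39 and 2.62 FPKM in the mutants (unadjusted p = 0.00700, limma adjusted p = 0.824). Isl1, a LIM homeodomain factor of endocrine cells, had 0.0573 and 0.482 FPKM in the controls and 0.987 and 0.639 FPKM in the mutants. Lmx1b, the relative of Lmx1a used by serotonin neurons, was listed at 0 in all 4 libraries.

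None of the 3 tetrahydrobiopterin enzymes passed. Gch1, GTP cyclohydrolase, the first and rate-limiting step (chr14:47773570-47809077), had 9.27 and 9.19 FPKM in the controls and 13.2 and 12.4 FPKM in the mutants. Both mutants were higher, by more than the spread within either group, with a log2 change of 0.45 (SE 0.19, 95% interval 0.02 to 0.89) that did not pass (limma adjusted p = 0.824, unadjusted p = 0.0441). The change was 0.62 relative to the median of all genes, and 0.65 in the authors' deposited table, with an unadjusted p of 0.0491 and an adjusted p of 1.

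Pts, 6-pyruvoyltetrahydropterin synthase, the second step (chr9:50329722-50336746), had 37.4 and 46.0 FPKM in the controls and 30.3 and 41.4 FPKM in the mutants. The groups overlapped (log2 change −0.23, 95% interval −0.72 to 0.27). The Pts change was −0.0049 without mutant 1, −0.080 without control 2, −0.37 without control 1, −0.45 without mutant 2 and −0.054 after median ratio rescaling. Qdpr, dihydropteridine reductase, which recycles the oxidized cofactor (chr5:45825271-45841468), had 92.8 and 73.7 FPKM in the controls and 61.9 and 47.9 FPKM in the mutants. Its groups did not overlap, at 74.4% and 57.6% of the control mean in the mutants, and the change did not pass (log2 change −0.60, 95% interval −1.07 to −0.13, limma adjusted p = 0.824, unadjusted p = 0.0192). The change was −0.43 relative to the median of all genes.

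All 7 other tetrahydrobiopterin genes were tested, 6 with a change below 0 and 1 above, and 0 passed (median log2 change −0.08). Changes below 0 were found for 82.6% of all genes, with a median of −0.17. Akr1b3, an aldose reductase that can act in an alternative route, had 2.45 and 2.11 FPKM in the controls and 2.67 and 7.67 FPKM in the mutants, so its change in FPKM rested on mutant 2. The authors' deposited table gives Akr1b3 a mean of 0 normalized counts for the controls against 1.03 for the mutants. The 2 sources thus disagree on its level, and the reason was not tested. Pcbd2, a pterin dehydratase, had 32.8 and 29.8 FPKM in the controls and 27.7 and 28.2 FPKM in the mutants.

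Pyridoxal phosphate is the cofactor of the decarboxylase. All 4 genes on its list had changes below 0 (82.6% of all genes), and 0 passed. Their median log2 change was −0.41, beside −0.17 for all genes. Alpl, a phosphatase that acts on pyridoxal phosphate outside cells, had 5.67 and 3.82 FPKM in the controls and 2.79 and 3.74 FPKM in the mutants.

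Subunits of the vesicular proton pump, which powers VMAT transport, had changes below 0 in 19 of 19 tested genes (82.6% of all genes), with a median log2 change of −0.22 beside −0.17 for all genes, and 0 passed. Atp6v0e2 had 13.4 and 15.5 FPKM in the controls and 8.45 and 10.4 FPKM in the mutants, and Atp6v1d 54.2 and 49.3 FPKM in the controls and 36.8 and 45.6 FPKM in the mutants. Genes of tryptophan entry and its other uses had 10 lower and 3 higher of 13 tested, with 0 passing (median log2 change −0.19). Haao and Kmo, both of the kynurenine route, had 1.57 and 0.348 FPKM and 3.42 and 1.05 FPKM in controls, and 0.141 and 0.254 FPKM and 0.812 and 1.63 FPKM in mutants. Of 10 genes for other amine transmitters and acetylcholine 2 were tested and 0 passed. Dbh, which makes noradrenaline, had 1.06 and 2.41 FPKM in the controls and 1.93 and 1.27 FPKM in the mutants, and the acetylcholine transporter Slc18a3 0.512 and 0.640 FPKM in the controls and 0.583 and 0.642 FPKM in the mutants.

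The profile most like that of Tph1 was sought over the 4 libraries as the smallest Euclidean distance between log2(FPKM + 0.5) values centred on the control mean. The 5 nearest genes outside the 10 were Chgb (distance 0.433), Chga (1.20), Insl5 (2.08), Wif1 (2.79) and Hba-a2 (2.996). Chgb and Chga, granins of hormone granules, and Insl5, a gut peptide hormone, also passed over all genes; with Tph1 they are the 4 that passed lower. With median ratio rescaling, quantile normalization, no filter, mutant 1 left out, or small RNA and histone genes removed, 0 genes passed lower, and 3, 2, 0, 8 and 0 passed higher, respectively; with no variance trend 2 passed lower. Chgb had 68.7 and 97.8 FPKM in the controls and 3.91 and 11.1 FPKM in the mutants, and Chga 43.4 and 69.8 FPKM in the controls and 4.87 and 8.69 FPKM in the mutants. These genes were chosen for their likeness to Tph1 in these 4 libraries, so their closeness to it is set by the choice. Insl5 had 6.29 and 7.18 FPKM in the controls and 0.903 and 0.677 FPKM in the mutants. Its mutants thus stood in the opposite order to those of Tph1. Wif1, a secreted Wnt inhibitor, had 1.18 and 2.31 FPKM in the controls and was listed at 0 in mutant 1 and at 0.222 FPKM in mutant 2. Hba-a2, a hemoglobin gene with a near-identical copy, shared the order of the libraries at a far larger standard error (log2 change −3.22, SE 1.31).

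Of 15 enterochromaffin markers 13 were tested, 12 with a change below 0 and 1 above, and Chga and Chgb passed lower (median log2 change −0.49). Of all genes fitted 0.0286% passed lower and 82.6% had a change below 0, with a median of −0.17. Their summed level was 194.4 and 260.6 FPKM in the controls and 58.0 and 85.7 FPKM in mutants. In the controls most of this sum came from Chga and Chgb, the genes nearest to Tph1 by the choice above. None of the other tested markers passed. At an unadjusted p under 0.05 in limma there were 5 of the 13, Chga and Chgb among them and all lower in the mutants. The share over all genes was 4.82%, and of the 12 tested enteric neuron markers 4 were under that p. The marker sum and Tph1 were both lowest in mutant 1. So were the sums of all other lists but those of mast cells, epithelium and other amine transmitters. The factor used for median ratio rescaling was 0.880 for mutant 1, against 1.087 for control 1, 1.037 for control 2 and 1.006 for mutant 2. The part of enterochromaffin cell number in the results was not tested.

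**Figure D4:**
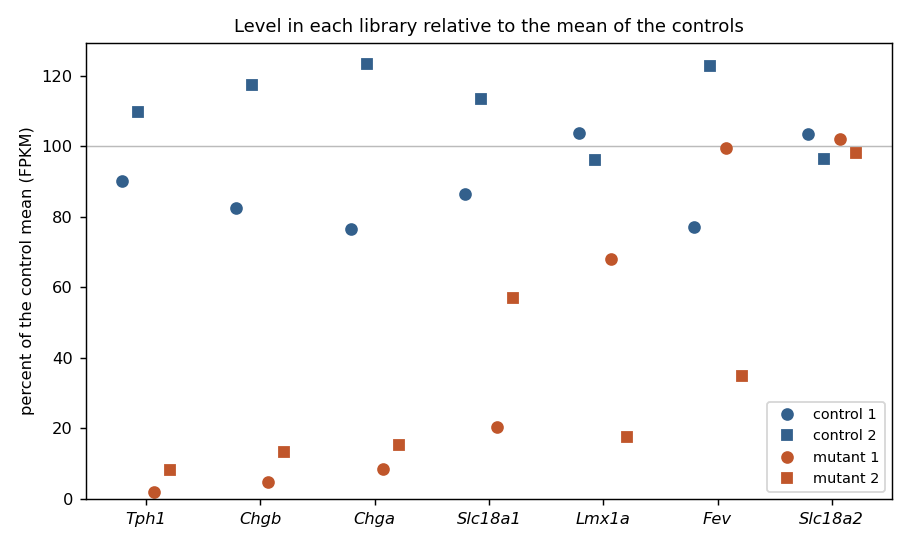
Level of 5 serotonin genes and the 2 granin genes in each library as a percentage of the control mean (vertical axis; circles are replicate 1, squares replicate 2, blue control, orange mutant). In the mutants Tph1 is at 2.07% and 8.15% and Slc18a2 at 102.2% and 98.2%, with Slc18a1 in between at 20.4% and 57.1%.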

How the data were processed

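RNA-seq of 4 colon libraries was used, 2 control and 2 mutant by the labels' titles. Per the submitters' processing notes, bcl2fastq 1.8.4, TopHat, Cufflinks and DESeq were used on mm9. The authors deposited FPKM with a 95% interval per gene and isoform, and per the file headers also the coverage signal and length (another value, in bases) of each isoform. In the authors' deposited table, mean normalized counts (a signal), the fold ratio, its log2 value and p-values compare mutant with control, with no SD or n here.

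Gene rows not marked OK in every library (306 of 23699) were dropped and rows of 1 symbol summed. The test was limma 3.58.1 in R 4.3.3 on log2(FPKM + 0.5), for genes whose mean reached 0.5 FPKM and for the 10 genes and Nkx2-2 (with a variance trend and Benjamini-Hochberg adjustment at 0.05), and isoforms likewise. This scale understates changes of low genes. With 2 against 2 the smallest exact permutation p is 0.333, so none is given. Implied fragments come from the width of the FPKM interval and, like it, leave out the spread between libraries. For Tph1 and Nkx2-2, with 2 isoforms each, most were not whole numbers (such as 2.4 for Tph1 in mutant 1). For these genes they are a rough guide and not a count of fragments. Relative depth is the median ratio of coverage per FPKM to that of control 1. Total depth is not given in the sources used here. Promoters are from NCBIM37 (mm9) and GENCODE vM1, and promoter shares from RefSeq on GRCm38.p6.

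Named genes are the 10 members, Nkx2-2, the 5 nearest to Tph1, and for each list the passing genes, the 2 with the smallest p and, for markers, the 2 most abundant. Outside this rule, the listed genes Cma1, Fcer1a, Ms4a2 and Lmx1b, all under the tested level, are also named. The values of 1 listed gene are not reported here. Members and lists were chosen with earlier results of these data known. Recovery by limma was checked on simulated data for mutant against control (13997 genes, 50 changed per fold size). It was 4% for the 2-fold changes, 76% for the 4-fold, 94% for the 8-fold and 98% for the 16-fold, with 6 false calls. Recovery was not split by level, so these shares cannot be read for low genes such as Slc18a1, Slc18a2, Fev, Lmx1a, Tph2 and Nkx2-2.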

Additional observations from a re-analysis of the deposited data

How the results depend on the processing

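The number of genes past the threshold, 9 as reported, was 0 with no filter, 3 after median ratio rescaling, 2 after quantile normalization and 0 once small RNA and histone genes were removed and the rest rescaled, the last chosen after seeing the data. At an unadjusted p under 0.05 in limma these settings gave 1084 genes with no filter and 475 without small RNA and histone genes. The share of genes with a change below 0, 82.6% as deposited, was 51.3% after rescaling and 49.7% after quantile normalization. Of the 10 serotonin genes, 1 as reported, 0 passed under each of these 4 settings. Tph1 had a log2 change of −3.79 with no filter (limma adjusted p = 0.758), −3.66 after rescaling (0.160), −3.67 after quantile normalization (0.289) and −3.70 without small RNA and histone genes (0.133), and its change ran from −4.38 to −3.21 over 15 alternatives.

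The labels give both groups replicates 1 and 2 but no pairing, and the deviations of same-numbered libraries correlated at −0.0022 across genes. With the replicate block, 195 genes, 2 serotonin genes (Tph1 and Slc18a1) and 2 isoforms passed. The standard error of Slc18a1 was 0.32 with the block and 0.36 without, and its unadjusted limma p 0.00026 and 0.0101. The pass of Slc18a1 thus rests mostly on how the fit pooled variance over genes, and gives no evidence of pairing. Leaving out each library in turn, with a lone library assumed to vary like the others, gave 8 to 363 genes, 0 to 2 serotonin genes and 0 isoforms, and a log2 change of −4.36 to −3.21 for Tph1. The isoform count, 1 as reported, was 0 with no filter, 0 with no variance trend, 3 with all rows whatever their status and 0 without small RNA and histone genes (1298, 702, 711 and 601 isoforms at an unadjusted p under 0.05 in limma).

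Signs turned for 3 serotonin genes and 1 isoform. Tph2 was at −0.13 after quantile normalization, Slc18a2 at −0.036 without control 2 and −0.019 without mutant 1 (−0.036 to 0.042 leaving out each library), Fev at 0.013 without mutant 2 (−0.81 to 0.013), and Ddc NM_001190448 at 0.059 after rescaling, 0.079 after quantile normalization, 0.044 without control 2 (−0.26 to 0.044) and 0.0085 without small RNA and histone genes. The log2 change of Ddc NM_016672 kept its direction in 14 of 14 alternatives, from −5.45 to −2.40, and did not pass in any (adjusted p from 0.0962 to 1.00). Values in mutant 1 rest on the lowest depth.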
